A study of Mus musculus with 514 samples.

Results

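Early 2-cell mouse embryos that had lost Nr5a2 from their own genome, but came from an oocyte with a functional Nr5a2 gene, were profiled in 12 libraries of the 514 in the series. They are the columns labelled z_NrKO at the early 2-cell stage (E2C) in the table of full-length reads, and they were set against the 21 libraries labelled mz_Nrpp. Each library is the poly-A RNA of a single embryo, made with a protocol derived from FLASH-seq in which genotyping primers were added to the cDNA amplification, so that genotype and transcriptome came from the same embryo. The study knocked out Nr5a2 and Esrrb maternally, zygotically or both. Its purpose, as its title states it, was to ask what Nr5a2 contributes to zygotic genome activation and to morula development. The comparison taken here asks which transcripts differ when only the embryo's own copies are lost.

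Per the table's header, the mz_Nrpp controls carry only wild-type or floxed Nr5a2 alleles, and NrHet controls are heterozygous. Among the full-length E2C libraries there were 29 of mz_NrHet, 18 of m_NrKO (maternal loss) and 22 of mz_NrKO (maternal and zygotic loss) beside the 12 and the 21. All are mouse embryos collected ex vivo. What deleted the floxed alleles, the deleted part of the gene, the mothers, the litters and the strain are not given in the sources used here, and the p-values measure the spread between embryos, which may share a mother. Embryos of z_NrKO were collected on 4 dates, with 5 on 1 August, 1 on 7 November, 1 on 14 November and 5 on 11 January of the next year. The mz_Nrpp embryos came from 3 of those dates, with 6 on 1 August, 6 on 14 November and 9 on 11 January. Date was therefore a factor in the fits over several dates.

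Nr5a2 is an orphan nuclear receptor that binds DNA as a monomer. It is present in the oocyte, is transcribed again by the embryo, and in adult liver it regulates bile acid synthesis. At the early 2-cell stage the embryo runs largely on RNA and protein stored by the oocyte while its own genome is first transcribed, and a short burst of genes such as the Zscan4 cluster marks that phase. Loss from the zygotic genome alone leaves the oocyte's store in place.

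Values are TPM as deposited, a transcript abundance scaled to the library total and to length, and differences are on the log2(TPM + 1) scale, which understates changes of low genes. The sum of TPM over named genes was 983928 to 990702 in z_NrKO and 980986 to 989732 in mz_Nrpp. TPM keep no sequencing depth, so the depth is unknown, and as shares of a library they do not tell less of a transcript from more of the others. The number of genes above 1 TPM averaged 14096.7 ± 319 (SD, n = 12) in z_NrKO and 14027.6 ± 379 (SD, n = 21) in mz_Nrpp, a difference of 69.1 genes (two-sided permutation test within dates, 100000 resamples, p = 0.625). Early 2-cell burst genes were present in z_NrKO, with Zscan4d at a median of 97.9 TPM and Zfp352 at 104 TPM, and so were the oocyte genes Gdf9 at 650 TPM and Zar1 at 241 TPM. The summed level of 20 cumulus and granulosa markers had a median of 257 TPM in z_NrKO and 294 TPM in mz_Nrpp. Of the 20, 8 were listed at 0 in every z_NrKO embryo and 4 in every embryo of the larger mz_Nrpp group. The 12 blood markers summed to 2.48 to 55.4 TPM in z_NrKO and 1.42 to 11.7 TPM in mz_Nrpp, the 12 oviduct markers to 3.52 to 49.3 TPM and 4.40 to 24.3 TPM, and the 13 sperm markers to 320 to 492 TPM and 302 to 539 TPM. Among E2C libraries, mz_NrKO replicate 1 stood apart: its TPM over named genes summed to 814735 and it had the fewest genes above 1 TPM, 11030. That library belongs to neither group compared, but it enters the shared estimate of the spread, and results are also given without it.

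Nr5a2 itself (chr1:136842571-136960448, minus strand, mm10) was measured at 47.5 to 132 TPM with a median of 82.9 in z_NrKO and at 47.7 to 168 TPM with a median of 107 in mz_Nrpp. The ranges overlapped almost entirely. The fitted difference was -0.27 ± 0.13 on the log2 scale (SE; limma p = 0.0464, adjusted p = 0.617). Heterozygous mz_NrHet embryos had a median of 84.4 TPM, m_NrKO embryos 78.8 TPM and mz_NrKO embryos 79.6 TPM. The gene's median level was thus alike among the groups labelled with lost alleles, z_NrKO included, whatever the number lost. The mz_Nrpp median was the highest. NrKO oocytes were at 23.7 to 75.5 TPM (median 55.5) and Nrpp oocytes at 23.5 to 82.4 TPM (median 40.6). Gene-level TPM therefore does not check the genotype labels here. Exon-level values were not used.

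Against mz_Nrpp, 18 of 13040 tested genes (0.138%) passed an adjusted p of 0.05 in limma, 9 higher and 9 lower (0.069% each). Of the 18, 12 carry ordinary gene names and are here called annotated genes. The other 6 carry symbols with Gm, Rik or -ps and are here called pseudogenes or predicted transcripts. The sorting is by symbol alone: among the 6, Gm15446 is annotated as protein-coding and 1700057H21Rik as a long noncoding RNA. The median difference over all tested genes was 0.01. Without adjustment 1041 genes had p under 0.05 (7.98%), 626 higher and 415 lower, where 652 would be expected with no difference. The comparison of mz_NrHet with mz_Nrpp, neither of them a knockout, had 1069 such genes and shares the mz_Nrpp libraries. The median SE was 0.249, and for 72.6% of the tested genes the 95% confidence interval lay within 1 log2 unit of 0. Over all 13040 tested genes, 1 was above every control in every knockout embryo, Mt1, and 0 were below every control. Mt1 is among the 18, which were called on this same difference.

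Of the 9 genes that rose, Mt1 changed most. Metallothionein 1 is a small cysteine-rich protein that binds zinc and copper, and its gene is switched on by metals through the factor MTF1. It was at 13.8 to 44.0 TPM with a median of 25.3 in z_NrKO, whereas 15 of the 21 mz_Nrpp embryos were listed at 0 and the highest was 7.09 TPM. All 12 knockout embryos were above all 21 controls. The difference was 4.09 ± 0.25 (SE; limma adjusted p = 2.27e-26). On 1 August it was 4.32 ± 0.52 (limma adjusted p = 0.000489) and on 11 January 3.90 ± 0.57 (limma adjusted p = 0.00379). The heterozygous mz_NrHet embryos, however, were at 10.3 to 48.9 TPM with a median of 20.2, m_NrKO embryos at 8.90 to 49.9 TPM with a median of 25.1, and mz_NrKO embryos at 3.25 to 47.1 TPM with a median of 23.4. The group that stood apart for Mt1 was thus mz_Nrpp, and z_NrKO differed from mz_NrHet by -0.04 ± 0.24 (limma adjusted p = 0.992). In oocytes the Nrpp group was at 0 to 7.65 TPM with 5 of 9 listed at 0, the NrHet group had a median of 5.32 TPM and the NrKO group 7.59 TPM, so Nrpp had the lowest median of the oocyte groups too, with overlapping ranges. Mt2, the neighbouring metallothionein, was at 0 to 8.01 TPM in z_NrKO and 0 to 6.35 TPM in mz_Nrpp, with both medians listed at 0.

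Mt1 lies at chr8:94179082-94180327 on the plus strand (GENCODE M21, mm10). Its promoter is shown because Mt1 carries the clearest difference of the comparison and is known for metal response elements. The 250 bases before its RefSeq start (GRCm38.p6, chr8:94178839-94179088, plus strand) hold 1 match on either strand to the core of that element, TGCACNC or TGCGCNC, in capitals at bases -23 to -17 from the start. The RefSeq start lies just downstream of the GENCODE start, so the last bases of the window fall inside the GENCODE gene.
Mt1 promoter: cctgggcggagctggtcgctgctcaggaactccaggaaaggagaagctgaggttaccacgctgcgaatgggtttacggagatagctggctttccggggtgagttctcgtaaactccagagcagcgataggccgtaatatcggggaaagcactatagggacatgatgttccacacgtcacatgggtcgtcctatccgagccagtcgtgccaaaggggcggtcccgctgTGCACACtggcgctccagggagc
The same letters occur in 7032 of 32851 RefSeq windows of that length (21.4%), and in 3 of the 11 called genes with a window (Mt1, 1700057H21Rik and Kif18b). The match is a description of the sequence. Bases outside the 250, on either side, were not searched, so the count does not tell how many such elements Mt1 has.

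Kif18b and Rnaseh1 rose by less and from higher levels. Kif18b, a kinesin that trims spindle microtubules in mitosis, was at 32.1 to 90.0 TPM (median 62.9) in z_NrKO and 21.1 to 64.3 TPM (median 34.3) in mz_Nrpp, a difference of 0.81 ± 0.18 (limma adjusted p = 0.0309). Rnaseh1, which removes RNA from RNA-DNA hybrids, was at 54.2 to 261 TPM (median 90.6) against 21.8 to 123 TPM (median 59.0), a difference of 0.76 ± 0.15 (limma adjusted p = 0.00445), and 4 of the 12 knockout embryos were above every control. In mz_NrHet the medians were 62.0 TPM for Kif18b and 79.5 TPM for Rnaseh1, both nearer z_NrKO than mz_Nrpp. Pdcd7, a protein of the minor spliceosome, was at a median of 150 TPM (80.9 to 273) against 98.6 TPM (33.4 to 216), a difference of 0.67 ± 0.16 (limma adjusted p = 0.040), with mz_NrHet at a median of 147 TPM.

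Gca and Rimbp2 rose at low levels. Gca encodes grancalcin, a calcium-binding protein, and was at 6.82 to 35.0 TPM (median 15.5) in z_NrKO against 0 to 13.6 TPM (median 5.42) in mz_Nrpp, a difference of 1.75 ± 0.40 (limma adjusted p = 0.0315). Rimbp2, a scaffold protein known from presynaptic terminals, was at 5.51 to 22.7 TPM (median 12.2) against 0.199 to 27.2 TPM (median 4.91), a difference of 1.24 ± 0.29 (limma adjusted p = 0.040). For these genes the mz_NrHet medians were 16.5 TPM (Gca) and 10.8 TPM (Rimbp2). The pseudogene Ctsm-ps2 and Gm49346, also called higher, are described below.

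Of the annotated genes that fell, Fam57a had the smallest p. Fam57a (chr11:76179671-76214827, plus strand), which encodes a membrane protein with a TLC domain, was at 16.9 to 38.9 TPM (median 21.8) in z_NrKO and 33.8 to 92.3 TPM (median 60.1) in mz_Nrpp. All but 1 of the 12 knockout embryos were below all 21 controls. The difference was -1.14 ± 0.20 (limma adjusted p = 0.000965). Heterozygous embryos lay at 8.82 to 67.1 TPM with a median of 30.8, and differed from mz_Nrpp by -0.90 (limma adjusted p = 0.00116). Fam57a did not follow the number of lost alleles: its median was 48.7 TPM in m_NrKO and 49.9 TPM in mz_NrKO, and mz_NrKO exceeded z_NrKO by 1.00 ± 0.21 (limma adjusted p = 0.0109). In oocytes of the Nrpp group its median was 5.39 TPM.

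Chit1, a chitinase, showed the lower level in z_NrKO with the heterozygous group closer to the wild-type one. It was at 0.446 to 13.4 TPM with a median of 3.89 in z_NrKO, at 0.88 to 69.3 TPM with a median of 15.9 in mz_Nrpp, and at a median of 12.1 TPM in mz_NrHet. All 12 knockout embryos were below the control median, but 1 alone was below every control. The difference from mz_Nrpp was -1.70 ± 0.39 (limma adjusted p = 0.0315) and that from mz_NrHet -1.29 ± 0.37 (limma p = 0.000738, adjusted p = 0.878), which did not pass. The median was 9.77 TPM in m_NrKO and 4.74 TPM in mz_NrKO, and the difference of mz_NrKO from mz_Nrpp was -1.61 (limma adjusted p = 0.00679). At the late 2-cell stage (L2C) 4 of 6 z_NrKO embryos were listed at 0 and the highest was 5.75 TPM, against 0 to 36.3 TPM (median 7.89) in the 7 z_NrHet embryos, a difference of -2.48 ± 0.75 (limma adjusted p = 0.209).

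Chit1 lies at chr1:134111242-134151540 (plus strand), 2.69 Mb from Nr5a2 on the same chromosome. Of 90 tested genes within 10 Mb of Nr5a2 it was the 1 called, where 0.138% of all tested genes were called. Among those 90, 7 were higher and 5 lower at an unadjusted p under 0.05, against 4.8% and 3.18% of all tested genes, and their median difference was -0.01, against 0.01. Its promoter is shown because Chit1 was also the 1 called gene whose 250 bases before the RefSeq start (GRCm38.p6, chr1:134110992-134111241, plus strand) hold the extended monomer site of Nr5a2, searched on both strands as CAAGGTCA or CAAGGCCA. The match, in capitals, reads on the minus strand and spans bases -70 to -63 from the start.
Chit1 promoter: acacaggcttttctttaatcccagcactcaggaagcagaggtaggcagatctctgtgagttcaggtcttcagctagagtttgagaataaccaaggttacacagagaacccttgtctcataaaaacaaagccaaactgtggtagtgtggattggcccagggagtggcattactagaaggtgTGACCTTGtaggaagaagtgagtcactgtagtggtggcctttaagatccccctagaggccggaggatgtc
The site occurs in 1077 of 32851 windows (3.28%) and in 1 of the 11 called genes with a window. No binding data were used here.

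Nrp1, Asb4 and Dsc2 fell by smaller amounts. Nrp1, a co-receptor for semaphorins and VEGF, was at 14.1 to 32.1 TPM (median 21.3) in z_NrKO against 19.8 to 54.1 TPM (median 34.9) in mz_Nrpp, a difference of -0.73 ± 0.17 (limma adjusted p = 0.0315). Asb4, a substrate-binding subunit of ubiquitin ligases, was at 5.58 to 28.2 TPM (median 13.1) against 14.0 to 45.1 TPM (median 25.3), a difference of -1.03 ± 0.24 (limma adjusted p = 0.0331). Dsc2, the desmosomal cadherin desmocollin 2, was at 3.00 to 28.7 TPM (median 7.91) against 3.35 to 44.5 TPM (median 19.6), a difference of -0.87 ± 0.21 (limma adjusted p = 0.0483). The groups overlapped for each of these genes. The mz_NrHet medians were 28.9 TPM for Nrp1, 17.4 TPM for Asb4 and 18.1 TPM for Dsc2. Against mz_NrHet the differences were -0.35 ± 0.16 for Nrp1, -0.38 ± 0.23 for Asb4 and -0.71 ± 0.20 for Dsc2 (limma p = 0.0275, 0.0937 and 0.000523; none passed after adjustment).

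**Figure D1:**
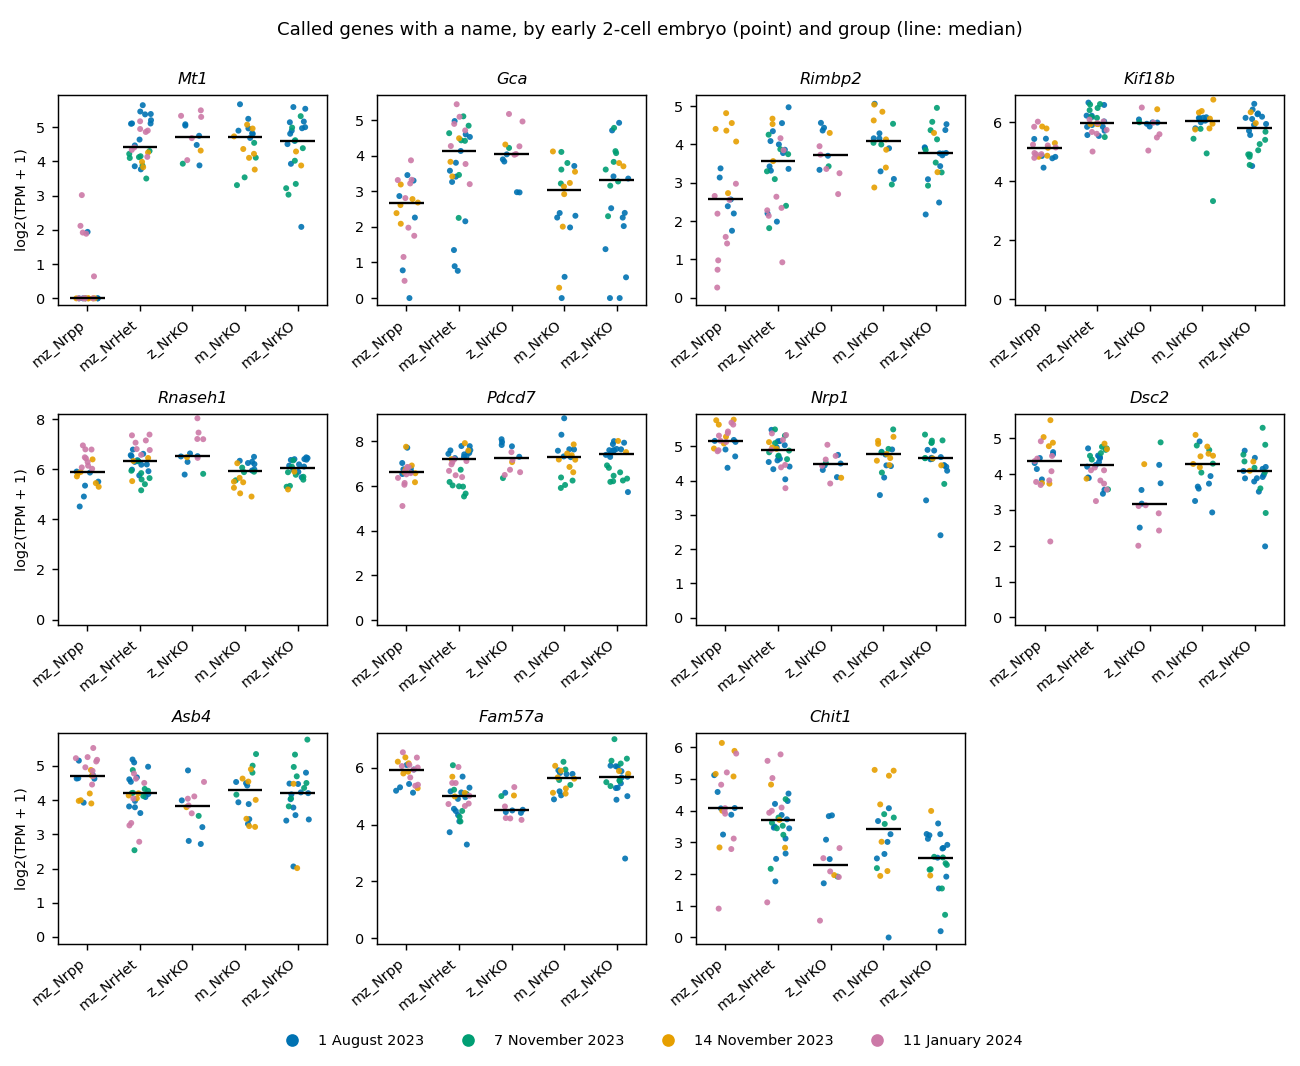
Levels of 11 annotated genes called in z_NrKO against mz_Nrpp, as log2(TPM + 1) on the vertical axis, in each embryo of the 5 early 2-cell groups; colour marks the collection date and the line the group median. For Mt1 the mz_Nrpp median lies below those of the other 4 groups, with 15 of 21 embryos listed at 0, while for Chit1 the z_NrKO median (3.89 TPM) and the mz_NrKO median (4.74 TPM) are the lowest.

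Of the 6 pseudogenes and predicted transcripts among the 18, Gm49346, Ctsm-ps2, Rnps1-ps, Gm15446 and Mrpl48-ps have sequence relatives or short models whose reads the counting could split, so their values are uncertain. They are named because of their place in the results below and were chosen after their values were seen. Gm49346 (chr16:23110753-23110858), annotated as a miRNA-type transcript, was detected in 7 of 12 z_NrKO embryos with a median of 15.7 TPM and in 4 of 21 mz_Nrpp embryos, and was listed at 0 in all 22 mz_NrKO embryos. The difference was 2.21 ± 0.52 (limma adjusted p = 0.040), and 2.35 against mz_NrHet (limma adjusted p = 0.0898). The noncoding 1700057H21Rik was at 0 to 28.1 TPM (median 11.0) against 5.60 to 59.7 TPM (median 21.6), a difference of -1.67 ± 0.35 (limma adjusted p = 0.0116). Mrpl48-ps was at a median of 3.41 TPM against 25.5 TPM, a difference of -2.18 ± 0.47 (limma adjusted p = 0.0173). The next genes by p, Speer5-ps1 (0.90 ± 0.22) and Gm40983 (1.78 ± 0.43), did not pass (limma adjusted p = 0.0523 for each).

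In the authors' deposited table, 63 of 55168 genes (0.114%) are called for this comparison, 39 up (0.0707%) and 24 down (0.0435%), and the header gives as criteria a 1.5-fold change, a false discovery rate under 0.1 and any sample above 10 TPM. Read per embryo, those criteria do not give every mark: Igf2r, with up to 16.4 TPM in mz_Nrpp, a log2 fold change of -0.98 and FDR 0.00568, is marked unchanged in the authors' deposited table. Of the 18 genes called here, 12 carry a call of the same direction in the authors' deposited table, among them Fam57a at a log2 fold change of -1.16 (FDR 2.32e-09) and Chit1 at -2.07 (FDR 0.000715). The other 6 are marked unchanged in the authors' deposited table, with FDR 1 for each, and include Mt1, Ctsm-ps2, 1700057H21Rik, Mrpl48-ps and Gm49346. For Mt1 the authors' deposited table gives a log2 fold change of 4.96 beside that FDR of 1. For Nr5a2 the authors' deposited table gives -0.24 (FDR 0.401).

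The heterozygous mz_NrHet embryos, which also come from oocytes with a functional store, gave a second control. Against them 0 of 13040 genes (0%) passed in limma, and 701 genes had an unadjusted p under 0.05 (5.38%), 411 higher (3.15%) and 290 lower (2.22%). The median SE was 0.237. Heterozygous embryos set against mz_Nrpp, where neither group is a knockout, gave 35 called genes (0.268%), 11 higher (0.0844%) and 24 lower (0.184%). That comparison and z_NrKO against mz_Nrpp share the mz_Nrpp libraries. Side by side, the difference from mz_Nrpp in z_NrKO and in mz_NrHet was 4.09 and 4.13 for Mt1, -1.14 and -0.90 for Fam57a, 0.81 and 0.93 for Kif18b, 0.76 and 0.57 for Rnaseh1, 1.75 and 1.43 for Gca, and 0.67 and 0.52 for Pdcd7, all called in both. It was -1.70 and -0.41 for Chit1, -0.87 and -0.16 for Dsc2, -0.73 and -0.37 for Nrp1, -1.03 and -0.65 for Asb4, and 1.24 and 0.65 for Rimbp2, called in z_NrKO alone. For both sets, loss of Nr5a2 alleles and a feature of the mz_Nrpp mothers or litters cannot be told apart, because the labels name neither. A call in z_NrKO alone is not a difference from mz_NrHet, against which none of the second set passed.

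**Figure D2:**
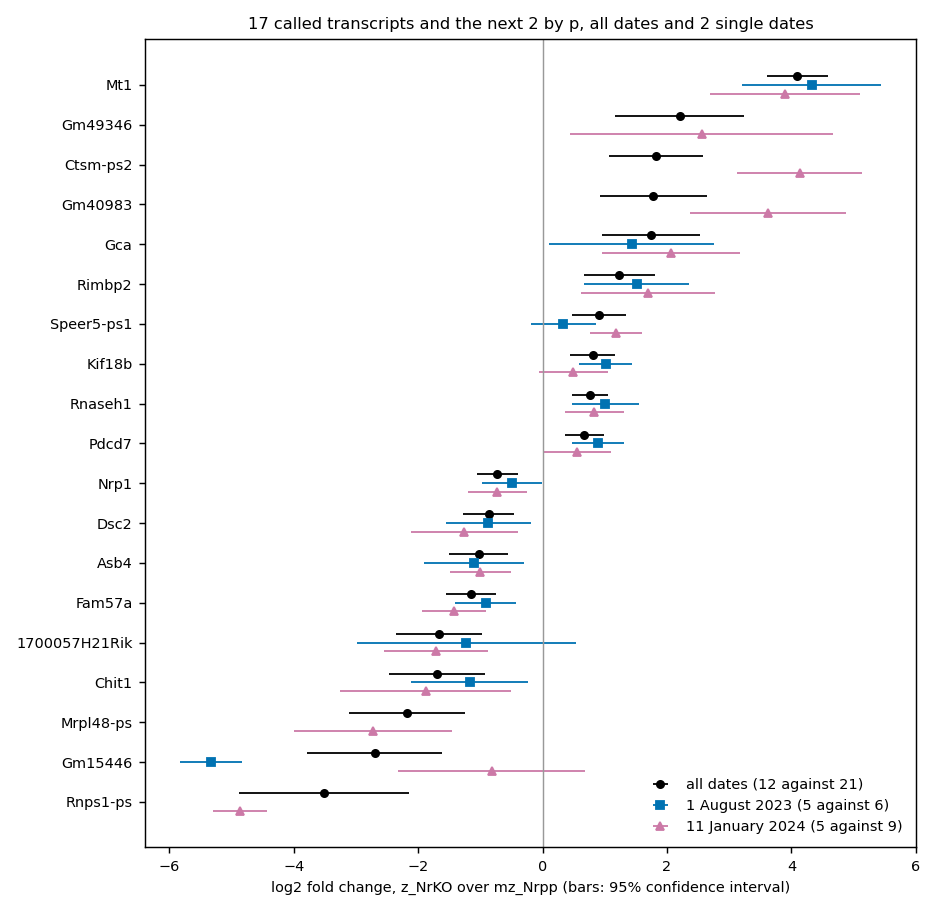
Log2 fold change of z_NrKO against mz_Nrpp with its 95% confidence interval for 17 called transcripts and the next 2 by p, over all dates (12 against 21 embryos), on 1 August (5 against 6) and on 11 January (5 against 9); a missing point was not tested on that date. Mt1 keeps its size on both dates (4.32 and 3.90), while Gm15446 was called on 1 August alone and Rnps1-ps and Ctsm-ps2 on 11 January, not being tested on 1 August.

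The fits of single dates gave largely different lists. On 1 August alone, 63 of 10319 genes (0.611%) were called in z_NrKO against mz_Nrpp, 22 higher and 41 lower. On 11 January alone, 36 of 10971 (0.328%) were called, 19 higher and 17 lower. The lists shared 3 genes, which are 4.76% of the first and 8.33% of the second: Mt1, Ccdc117 and Kpna2. Of these, Mt1 alone moved the same way on both dates. Each of the 18 genes called over all dates had the same sign on 11 January, and so did the 14 of them tested on 1 August. Those dates supplied most of the embryos behind the 18 calls, so the shared signs are largely built in and are no independent check. A model with a date-by-group term called 59 of 12166 genes (0.485%) as differing between the dates. Against mz_NrHet, 4 of 11249 genes (0.0356%) were called on 1 August, all of them annotated as pseudogenes. On 11 January 0 of those tested were called, and 447 (4.2%) had an unadjusted p under 0.05 in limma.

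The examples of genes that differed by date were chosen after their values were seen. Aurkc, the Aurora kinase of meiosis, was at 35.8 to 52.5 TPM in the z_NrKO embryos of 1 August and at 132 to 314 TPM in the mz_Nrpp embryos, a difference of -2.40 ± 0.21 (limma adjusted p = 2.06e-05). On 11 January the order was the other way round, with Aurkc at 411 to 470 TPM in z_NrKO and 183 to 371 TPM in mz_Nrpp. The heterozygous embryos of the same date lay with the knockouts in August (28.0 to 68.0 TPM), and had a median of 322 TPM in January. Kif5b, a kinesin motor, was at medians of 51.2 TPM in z_NrKO, 136 TPM in mz_Nrpp and 47.5 TPM in mz_NrHet on 1 August, and of 228 TPM, 137 TPM and 212 TPM on 11 January. The mz_Nrpp level of Aurkc (medians 260 and 252 TPM) and of Kif5b was alike on both dates, and it was the z_NrKO and mz_NrHet embryos that differed between dates.

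Kpna2, an importin alpha that carries proteins into the nucleus, was lower in z_NrKO on 1 August (184 to 382 TPM against 563 to 1040 TPM, a difference of -1.24 ± 0.18, limma adjusted p = 0.00236). It was higher on 11 January (486 to 932 TPM against 229 to 461 TPM, a difference of 0.80 ± 0.17, limma adjusted p = 0.0496). Ccdc117 went the other way, with medians of 314 TPM against 126 TPM on 1 August (1.36 ± 0.23, limma adjusted p = 0.00759) and 107 TPM against 236 TPM on 11 January (-1.11 ± 0.23, limma adjusted p = 0.0456). Over all dates its fitted difference was 0.00. For both genes the mz_NrHet median of the date lay on the z_NrKO side of the mz_Nrpp median, at 307 and 576 TPM for Kpna2 and at 199 and 149 TPM for Ccdc117.

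Some transcripts were close to absent in 1 group on 1 date. Pxdn, a peroxidase of the extracellular matrix, was listed at 0 in all 6 mz_Nrpp embryos of 1 August, and was at 15.0 to 31.6 TPM in z_NrKO and 13.2 to 35.8 TPM in mz_NrHet that day. On 11 January Pxdn was at 16.7 to 26.4 TPM in z_NrKO and 21.1 to 42.4 TPM in mz_Nrpp. Gsto2, a glutathione transferase, was at 72.9 to 107 TPM in the mz_Nrpp embryos of 1 August, while 3 of 5 z_NrKO embryos were listed at 0 and the highest was 3.75 TPM. Gsto2 in mz_NrHet that day did not exceed 5.76 TPM. Sh3rf2, a ubiquitin ligase, was at 21.2 to 44.1 TPM in z_NrKO, 10.5 to 33.7 TPM in mz_NrHet and 0 to 5.01 TPM in mz_Nrpp on 11 January. Rnps1-ps was at 116 to 204 TPM in the mz_Nrpp embryos of 11 January, 2.85 to 7.08 TPM in z_NrKO and 1.48 to 3.77 TPM in mz_NrHet. Over all dates the difference was -3.52 ± 0.69 (limma adjusted p = 0.00476). Gm15446 was at 144 to 249 TPM in mz_Nrpp on 1 August, 2.70 to 6.74 TPM in z_NrKO and 2.04 to 12.2 TPM in mz_NrHet, and over all dates differed by -2.70 ± 0.55 (limma adjusted p = 0.00882). Ctsm-ps2 was listed at 0 in all 9 mz_Nrpp embryos of 11 January, and was at 7.83 to 31.8 TPM in z_NrKO and 2.80 to 30.8 TPM in mz_NrHet, with a difference over all dates of 1.83 ± 0.38 (limma adjusted p = 0.0116). On those dates the ranges of z_NrKO and mz_NrHet overlapped and mz_Nrpp lay outside both, with the exception of Pxdn on 11 January. Date and mother cannot be told apart.

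**Figure D3:**
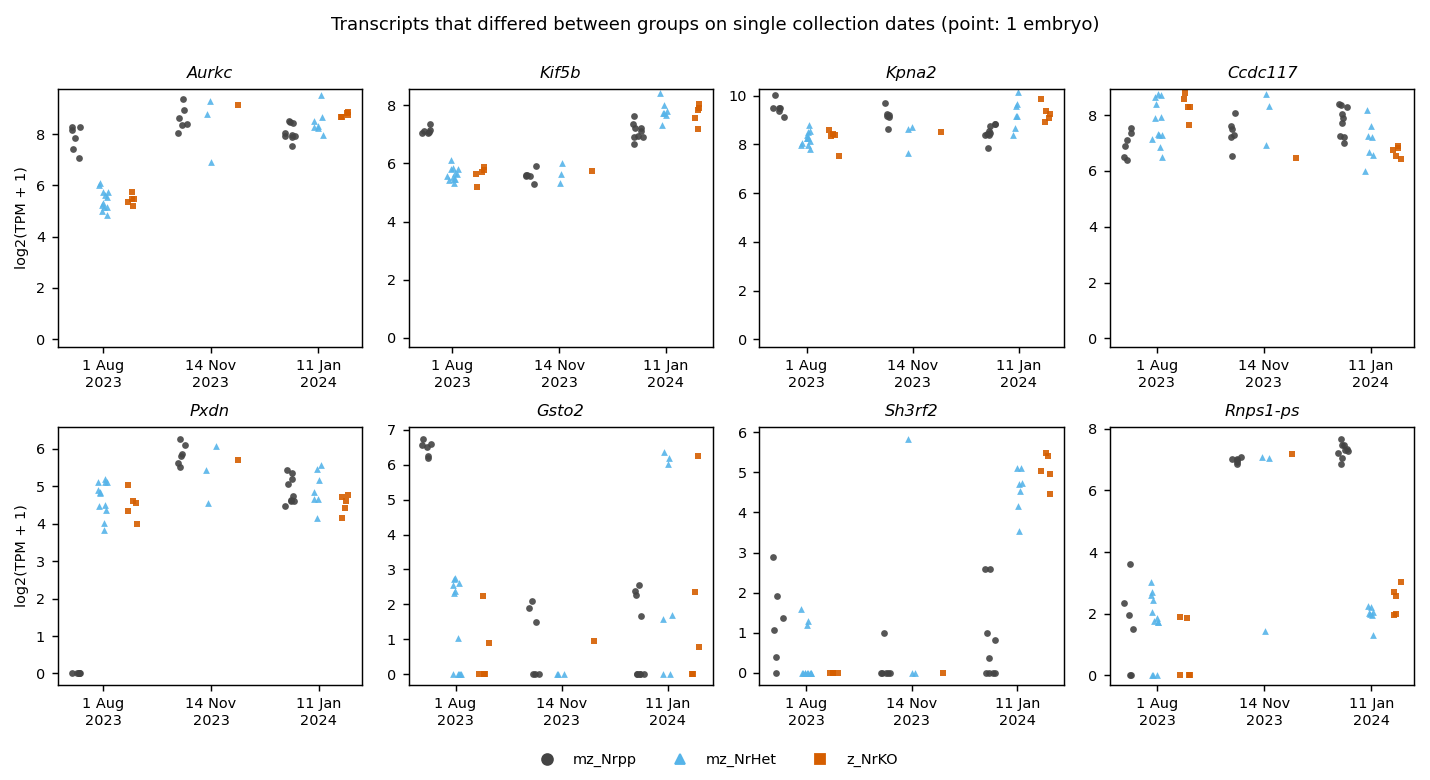
Levels of Aurkc, Kif5b, Kpna2, Ccdc117, Pxdn, Gsto2, Sh3rf2 and Rnps1-ps per embryo, as log2(TPM + 1), on 1 August, 14 November and 11 January in mz_Nrpp, mz_NrHet and z_NrKO; the embryos of 7 November are not drawn. On 1 August the Aurkc medians were 43.4 TPM in z_NrKO and 41.9 TPM in mz_NrHet, and 260 TPM in mz_Nrpp.

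Leaving mz_NrKO replicate 1 out of the shared spread raised the number of calls in z_NrKO against mz_Nrpp to 79 of 13026 (0.606%), 43 higher (0.33%) and 36 lower (0.276%), with all 18 among them. Of the 79, 63 are annotated genes, and 29 of the 79 were also called in mz_NrHet against mz_Nrpp, which shares the mz_Nrpp libraries and called 101 of 13026 genes (0.775%) in the same fit. The genes that then passed included Fanci, of the Fanconi anaemia DNA repair pathway, with medians of 73.9 TPM in z_NrKO and 38.4 TPM in mz_Nrpp (0.77 ± 0.16), and Wtap, a subunit of the RNA m6A methyltransferase complex, with medians of 569 TPM and 1109 TPM (-0.63 ± 0.13). The replication licensing genes Mcm6, Mcm4 and Cdt1 passed at limma adjusted p = 0.0294, 0.0297 and 0.0309, each higher in z_NrKO. The oocyte gene Nlrp2 was 1.06 higher (limma adjusted p = 0.0397). Klf17 was -0.25 (limma adjusted p = 0.0457) and Cnot9, of the CCR4-NOT deadenylase, -0.35 (limma adjusted p = 0.0426). The mz_NrHet medians were 62.7 TPM for Fanci, 604 TPM for Wtap, 197 TPM for Mcm6 and 211 TPM for Mcm4. They were 137 TPM for Cdt1, 78.7 TPM for Nlrp2, 604 TPM for Klf17 and 168 TPM for Cnot9. Of these genes, Mcm6 alone was also called in mz_NrHet against mz_Nrpp in that fit (limma adjusted p = 0.0261). Against mz_NrHet, 1 of 13026 genes passed in that fit, lower in z_NrKO, and 1001 of the 13026 had an unadjusted p under 0.05.

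The gene lists are described by counts of members at an unadjusted limma p under 0.05, against 4.8% of all tested genes higher and 3.18% lower. Of 47 tested genes of the 2-cell burst, 0 were called at an adjusted p of 0.05 in limma, 0 were higher and 2 lower without adjustment, and 39 had a difference below 0. Their median difference was -0.45, against 0.01 over all tested genes. Calcoco2, an autophagy receptor, was at 0 to 4.38 TPM (median 0.216) in z_NrKO and 0 to 73.6 TPM (median 3.32) in mz_Nrpp, a difference of -1.43 ± 0.42 (limma adjusted p = 0.181). Klf17, a zinc-finger factor transcribed at this stage, was at 396 to 725 TPM (median 534) against 428 to 856 TPM (median 631), a difference of -0.25 (limma adjusted p = 0.504). Against mz_NrHet the burst median was -0.66, with 0 called. In mz_NrKO against mz_Nrpp it was -1.08 and 9 members were called, beside 1.79% of all tested genes.

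The burst level varied widely between embryos of every group. The mean log2(TPM + 1) of the 47 genes was 2.95 to 6.94 in z_NrKO with a median of 4.32, 3.28 to 6.90 in mz_Nrpp with a median of 5.29, and 2.26 to 7.10 in mz_NrHet with a median of 5.42. The ranges overlapped. It had a median of 4.37 in m_NrKO and 3.44 in mz_NrKO. On 1 August the z_NrKO embryos were at 2.95 to 4.39 (median 3.26) and the mz_Nrpp embryos at 3.86 to 5.37 (median 4.95). On 11 January they were at 3.67 to 6.94 (median 4.79) and 3.28 to 6.90 (median 5.66). Zscan4d differed by -2.64 ± 0.53 on 1 August (5.21 to 114 TPM against 163 to 291 TPM, limma adjusted p = 0.0335) and by 0.93 on 11 January (47.4 to 756 TPM against 20.9 to 585 TPM, limma adjusted p = 0.768). The difference between those dates was 3.57 (limma adjusted p = 0.188), which did not pass. The moment of collection within the stage is not labelled, and its part in these values was not tested.

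**Figure D4:**
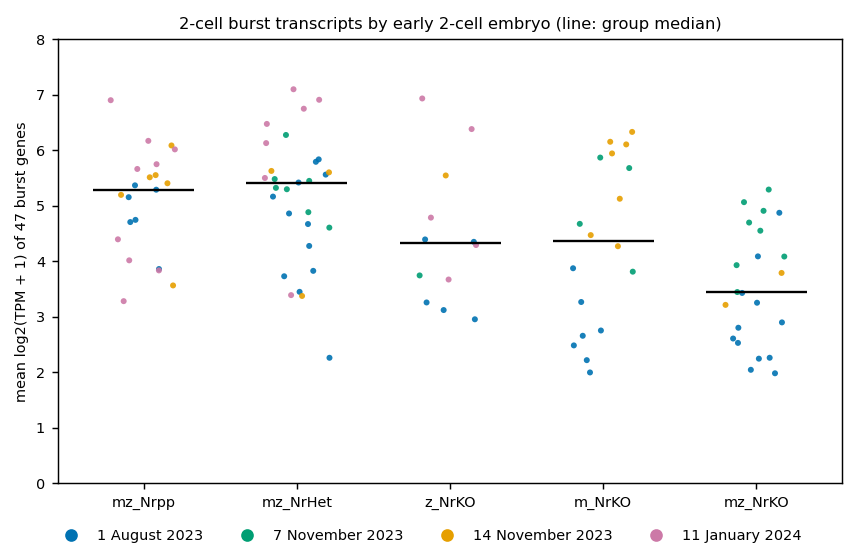
Mean log2(TPM + 1) of 47 genes of the 2-cell burst in each early 2-cell embryo of the 5 groups, with the collection date as colour and the median as a line. The z_NrKO embryos span 2.95 to 6.94 around a median of 4.32, within the span of mz_NrHet (2.26 to 7.10), and the mz_NrKO median is the lowest at 3.44.

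Lists for division and oocyte stores had more higher than lower members. Of 48 DNA replication genes 8 were higher and 0 lower without adjustment, with a median of 0.15. Mcm6, a subunit of the replicative helicase, was at 158 to 279 TPM (median 190) against 93.1 to 225 TPM (median 161), a difference of 0.44 (limma adjusted p = 0.224). Mcm4, another subunit, was at 156 to 299 TPM (median 242) against 91.6 to 280 TPM (median 163), also 0.44 (limma adjusted p = 0.248). In mz_NrHet the medians were 197 TPM for Mcm6 and 211 TPM for Mcm4. Of 47 mitosis genes 7 were higher and 0 lower, with a median of 0.10, and Kif18b was the 1 called. Kif2c, a microtubule-depolymerising kinesin, was at 14.7 to 65.0 TPM (median 33.1) against 6.73 to 37.6 TPM (median 17.3), a difference of 0.72 (limma adjusted p = 0.205). Of 42 oocyte and maternal genes 10 were higher and 1 lower, with a median of 0.12. Nlrp2, a component of the oocyte's cortical protein complex, was at 40.5 to 219 TPM (median 128) against 23.6 to 207 TPM (median 42.9), a difference of 1.06 (limma adjusted p = 0.148), and its partner Tle6 differed by 1.09 (limma adjusted p = 0.199). The summed oocyte list was at 13508.8 to 19615.8 TPM (median 18284.8) in z_NrKO and 13186.2 to 19136.3 TPM (median 16319.8) in mz_Nrpp.

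Oxidative phosphorylation and ribosome biogenesis also had more higher than lower members, and nuclear receptors more lower ones. Oxidative phosphorylation (47 genes tested, median 0.17) had 6 higher and 0 lower, with Sdhc of complex II at 0.64 and Ndufb3 of complex I at 0.87. Ribosome biogenesis (48 genes, median 0.14) had 6 higher and 0 lower, with Utp18 at 0.47. Nuclear receptors (21 genes, median -0.01) had 0 higher and 4 lower. Those were Thrb, a thyroid hormone receptor, at -0.84 (2.06 to 19.1 TPM against 3.08 to 19.9 TPM, limma adjusted p = 0.181), Rarb, a retinoic acid receptor, at -1.06, Nr2c1 at -0.51, and Nr5a2. Maternal RNA decay (31 genes) had 2 higher and 3 lower. Metallothioneins and zinc transporters (16 genes, median 0.02) had 2 higher, Mt1 and the zinc exporter Slc30a1 (0.94, limma adjusted p = 0.263), and 2 lower, Slc39a7 at -0.58 and Mt4 at -0.78. The p53 targets (25 genes, median 0.03) had Aen higher at 0.55 and Apaf1 lower at -0.71, and the stress response (31 genes, median 0.02) Hspe1 higher at 0.52 and Psat1 lower at -1.09. Pluripotency genes (14 tested) had Dppa5a higher at 0.92 and Lin28a lower at -0.28. For 11 trophectoderm genes and 6 liver and steroid targets of Nr5a2 the counts were 0 in each direction, with medians of -0.11 and -0.01. Apart from Mt1 none of the members named in these lists passed after adjustment in limma. In the authors' deposited table Thrb is marked down (log2 fold change -1.03, FDR 0.0112).

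Setting mz_NrKO against z_NrKO asks what removal of the maternal store adds once the zygotic copies are lost. It called 25 of 13040 genes (0.192%), 6 higher (0.046%) and 19 lower (0.146%) in mz_NrKO. Ric3, a chaperone of acetylcholine receptors, was at 0 to 12.5 TPM (median 2.58) in mz_NrKO and 3.72 to 28.8 TPM (median 10.6) in z_NrKO, a difference of -2.04 ± 0.40 (limma adjusted p = 0.00556). Bcl2l12 was at 0 to 13.5 TPM (median 3.25) against 5.70 to 20.5 TPM (median 12.4), a difference of -1.63 (limma adjusted p = 0.00556), and Myh10, a nonmuscle myosin heavy chain, at medians of 9.57 and 23.3 TPM (-1.18, limma adjusted p = 0.0196). Med20, a Mediator subunit, was at medians of 73.0 and 35.2 TPM (1.04, limma adjusted p = 0.0196) and Ccdc117 at 427 and 157 TPM (1.14, limma adjusted p = 0.0237). No mz_NrKO embryo was collected on 11 January. Without mz_NrKO replicate 1 the count was 73. Of the 18 genes called against mz_Nrpp, Fam57a, Gm15446 and Gm49346 were also called here, and the comparisons share the z_NrKO libraries.

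Zygotic loss was also compared over both maternal states, as z_NrKO and mz_NrKO against mz_NrHet and m_NrKO, which leaves mz_Nrpp out. Limma called 0 of 13040 genes (0%), and 1052 (8.07%) were under 0.05 before adjustment. The test of whether the zygotic effect differs between maternal states called 0 (0%), and 571 (4.38%) were under 0.05 before adjustment. Colgalt2, a collagen galactosyltransferase named after its values were seen, had the difference -1.12 ± 0.23 over both states (limma adjusted p = 0.077). It was listed at 0 in 21 of 22 mz_NrKO embryos, was at 0 to 16.8 TPM (median 2.78) in z_NrKO, and had medians of 7.81 TPM in mz_Nrpp, 7.91 TPM in mz_NrHet and 0.96 TPM in m_NrKO. Against mz_Nrpp, Colgalt2 differed by -0.98 in z_NrKO (limma adjusted p = 0.362) and by -2.53 in mz_NrKO (limma adjusted p = 1.06e-07).

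At the late 2-cell stage, 6 z_NrKO and 7 z_NrHet embryos, all collected on 8 March, gave 14 called genes of 14147 (0.099%), 1 higher (0.00707%) and 13 lower (0.0919%). The unadjusted p was under 0.05 for 1207 genes (8.53%). None of the 14 was among the 18 of the early stage. Of the 18, 15 could be tested at L2C and 0 were called there in limma. Of those 15, 6 differed in the same direction as at the early stage, where the control was mz_Nrpp. Dusp10, a phosphatase of MAP kinases, was at 1.87 to 12.0 TPM (median 3.93) in z_NrKO and 17.2 to 62.1 TPM (median 24.9) in z_NrHet, a difference of -2.57 ± 0.46 (limma adjusted p = 0.00796), with no overlap. Ppp1r16b, a regulatory subunit of protein phosphatase PP1, was at 3.25 to 16.9 TPM (median 7.97) against 19.9 to 110 TPM (median 73.2), a difference of -2.95 ± 0.54 (limma adjusted p = 0.00796), again with no overlap. Tulp1, a tubby-like protein known from photoreceptors, was at 0 to 0.618 TPM against 0.441 to 36.8 TPM (median 21.3), a difference of -3.40 ± 0.58 (limma adjusted p = 0.00593).

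Further L2C genes fell or rose by more than 1 log2 unit. Igf2r, the imprinted receptor that clears insulin-like growth factor 2, was at 17.1 to 59.0 TPM (median 55.7) in z_NrKO and 118 to 215 TPM (median 151) in z_NrHet, a difference of -1.76 ± 0.34 (limma adjusted p = 0.00885). At E2C Igf2r was at 1.23 to 7.06 TPM (median 3.27) in z_NrKO and 2.04 to 16.4 TPM (median 8.03) in mz_Nrpp, a difference of -1.06 that did not pass (limma adjusted p = 0.108), and the heterozygous embryos had a median of 2.72 TPM. Tlk2, a kinase of histone chaperones, was at 10.2 to 74.1 TPM (median 35.0) against 86.7 to 157 TPM (median 128), a difference of -1.82 ± 0.40 (limma adjusted p = 0.0479). Tlk2 at E2C was at 7.23 to 25.8 TPM (median 12.6) in z_NrKO and 6.04 to 55.9 TPM (median 21.1) in mz_Nrpp. Ripor3 was at 0 to 11.0 TPM (median 5.69) against 10.4 to 89.2 TPM (median 52.9), a difference of -3.06 ± 0.68 (limma adjusted p = 0.0485). Oaz3, an antizyme that restrains polyamine synthesis, was the 1 higher gene, at 19.9 to 51.2 TPM (median 23.6) against 0 to 9.79 TPM (median 1.18), a difference of 3.38 ± 0.64 (limma adjusted p = 0.00885).

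The controls of the 2 stages differ, heterozygous at L2C and wild-type or floxed at E2C, so their differences are given side by side. Mt1 at L2C was at 133 to 285 TPM (median 241) in z_NrKO and 171 to 498 TPM (median 349) in z_NrHet, a difference of -0.62 (limma adjusted p = 0.777), with the groups overlapping. Mt2 was at 248 to 306 TPM (median 287) against 230 to 370 TPM (median 248). Nr5a2 had risen to 435 to 859 TPM (median 669) in z_NrKO and 305 to 594 TPM (median 467) in z_NrHet. The median SE at L2C was 0.501, against 0.249 at E2C, so a call there needed a larger difference. No Nrpp group was among the L2C libraries used.

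**Figure D5:**
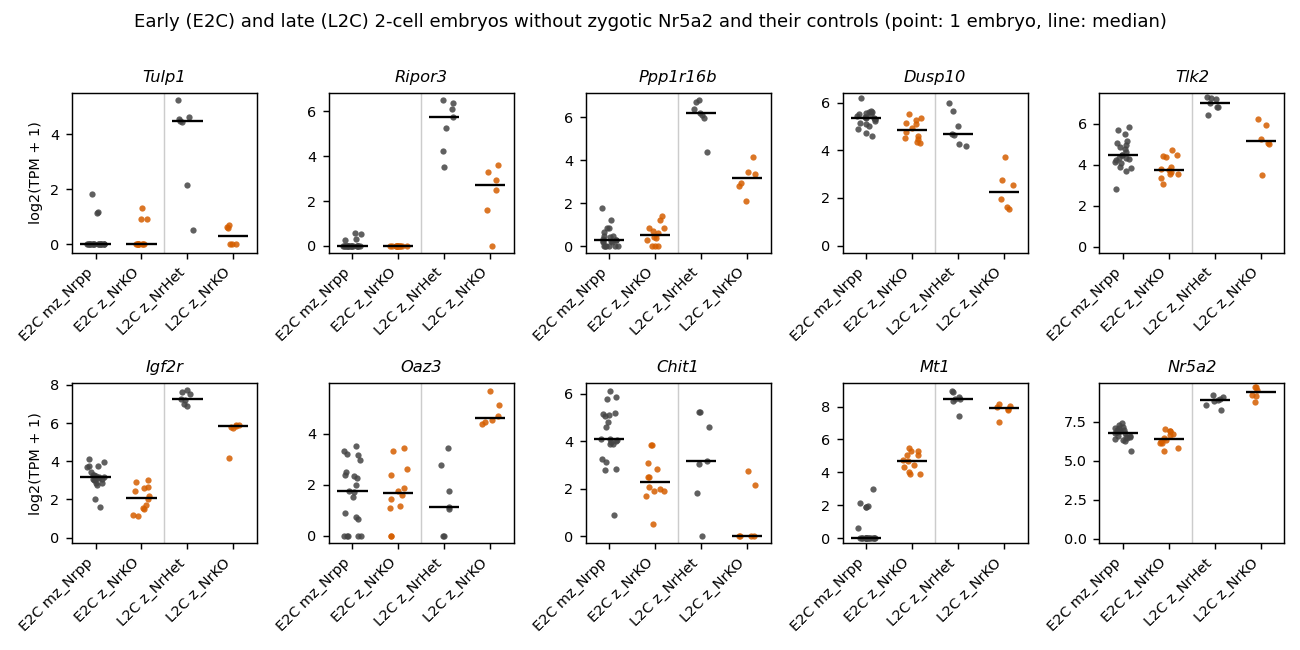
Levels per embryo, as log2(TPM + 1), of 10 genes in early 2-cell mz_Nrpp and z_NrKO and in late 2-cell z_NrHet and z_NrKO embryos, with medians as lines. Tulp1, Ripor3, Ppp1r16b, Dusp10, Tlk2 and Igf2r are lower in z_NrKO at the late stage, for example Ppp1r16b at medians of 7.97 and 73.2 TPM, whereas Mt1 overlaps between z_NrKO and the heterozygous control there.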

How the data were processed

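Full-length RNA-seq of single embryos was deposited by the authors as TPM per gene. Per the submitters' processing notes, cutadapt, STAR, RSEM, DESeq2 and the build mm10 were used, with no versions or order given. The deposited table also holds the authors' log2 fold changes and their false discovery rates (adjusted p-values), per the file headers, and these were used only where named. The table has 55168 named genes, and 65 entries without a name were left out.

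TPM + 1 was log2-transformed. Genes that reached 5 TPM in 12 or more E2C libraries (6 or more at L2C) were tested with limma 3.58.1 in R 4.3.3, with a mean-variance trend and with group and collection date as factors. All 5 E2C groups shared the estimate of spread. Benjamini-Hochberg adjusted p under 0.05 was a call. The fits were tested on simulated data with independent embryos and no date, litter or outlying-library effect, so that test does not cover such effects. No library pair was identical. Python 3.11.15 was used for descriptions and figures. TPM keep no counts, so no counting interval is given.

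The members and gene lists were chosen with earlier results of these data known. Named genes are Nr5a2, every called gene, the next by p up to 20, called genes within 10 Mb of Nr5a2, up to 4 members per list with the smallest p, and, in the L2C and mz_NrKO comparisons, the 6 largest changes among called genes averaging 10 TPM or more in a group. Of the called genes, 1 is counted but not reported here. Genes outside this rule are said to be chosen after their values were seen, and Colgalt2, Igf2r, Mt2, Zscan4d, Wtap, Fanci and the burst and oocyte markers belong with them. Positions are from GENCODE M21, and promoter windows from RefSeq on GRCm38.p6. The table of UMI reads, whose columns begin at the late 2-cell stage, was not used, and the UMI libraries labelled early 2-cell were not analysed here. Alternatives were another pseudocount, no filter, median-of-ratios scaling, no date term, the 2 groups alone, array weights, a replicate block, single dates and each library left out. Single-date fits against mz_NrHet, the date-by-group term and both contrasts over maternal states were chosen after seeing the data.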

Additional observations from a re-analysis of the deposited data

Results flagged for a closer look

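For 13 of the transcripts named here the difference between z_NrKO and mz_Nrpp was not the same on both main dates, by the date-by-group term of limma. The effect of 11 January minus the effect of 1 August was, in log2 units, -2.47 for Ccdc117, 3.08 for Aurkc, 2.03 for Kpna2, 2.10 for Kif5b, -4.88 for Pxdn, 6.74 for Gsto2 and 5.53 for Sh3rf2. Among pseudogenes and predicted transcripts it was -4.05 for Rnps1-ps, 4.51 for Gm15446, 4.13 for Ctsm-ps2, 3.42 for Gm12784, -6.69 for Atp6v0c-ps2 and 7.22 for Gm44796. For Ctsm-ps2, too low to be tested on 1 August alone, the value is the same as its difference on 11 January. Gm44796 was listed at 0 in all 5 z_NrKO embryos of 1 August and was at 70.6 to 157 TPM in the mz_Nrpp embryos of that day.

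In the late 2-cell groups a single embryo lay far below the others of its group in 6 of the 44 groups looked at. Chance gives about 1 in 20 for independent groups. The 44 are genes measured in the same embryos and are not independent. In z_NrHet these were Ppp1r16b at 19.9 TPM and Mt1 at 171 TPM, both in replicate 2. In z_NrKO they were Igf2r at 17.1 TPM and Mt1 at 133 TPM, both in replicate 1. Asb4 at 3.27 TPM and Dsc2, listed at 0, were both in z_NrKO replicate 5.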

How the results depend on the processing

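The count of genes called in z_NrKO against mz_Nrpp (18) was 8 with a pseudocount of 0.1, 30 with 5, 83 with median-of-ratios scaling, 5 with no date term, 39 in a fit of the 2 groups alone, 147 with array weights (90 higher, 57 lower), 79 without mz_NrKO replicate 1, 63 on 1 August and 36 on 11 January. It was 11 to 24 with 1 embryo of either group left out, and the lowest was without z_NrKO replicate 3. Mt1, Fam57a, Rnaseh1, Rnps1-ps, Gm15446 and Ctsm-ps2 were called in all 33 such fits. Dsc2 was lost in 26 of the 33, Gm49346 in 20, Rimbp2 and Pdcd7 in 16, Chit1 in 10, Asb4 in 8, Gca in 6, Nrp1 in 4, Kif18b in 3, 1700057H21Rik in 2 and Mrpl48-ps in 1. Ccdc117 and Kpna2 reversed in the fit of 11 January alone, to -1.11 and 0.80. The count against mz_NrHet (0) was 1 with a pseudocount of 5, 2 with no filter, 1 with no date term, 1 with array weights, 1 without mz_NrKO replicate 1, 4 on 1 August and 0 to 2 with 1 embryo left out. For mz_NrHet against mz_Nrpp (35) it was 103 with median-of-ratios scaling, 13 with no date term, 81 for the 2 groups alone, 86 with array weights, 101 without mz_NrKO replicate 1 and 23 to 37 with 1 left out (23 without mz_NrHet replicate 29). For mz_NrKO against z_NrKO (25) it was 15 with no filter, 94, 115, 4 and 130 with median-of-ratios scaling, no date term, the 2 groups alone and array weights, and 14 to 73 with 1 left out (14 without z_NrKO replicate 10, 73 without mz_NrKO replicate 1). For L2C (14) it was 9 with a pseudocount of 0.1, 22 with 5, 8 with no date term, 26 for the 2 groups alone, 27 with array weights and 9 to 20 with 1 left out (9 without z_NrKO replicate 3 or 5). For zygotic loss over both maternal states (0) it was 1 with a pseudocount of 0.1, 1 for the groups alone, 9 with array weights and 0 to 2 with 1 left out, and for the difference between maternal states (0) 1 with array weights. The causes of these changes were not tested, save that single dates hold fewer embryos. The difference in genes above a level was -74.0 at 5 TPM (p = 0.175, permutation test).

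With a replicate block the counts were 9 for z_NrKO against mz_Nrpp, 8 of them among the 18, 7 for mz_NrHet against mz_Nrpp and 45 for mz_NrKO against z_NrKO. The shared numbers do not pair the embryos: the correlation of deviations over 12 same-numbered pairs was -0.211 to 0.017, and 0 embryos correlated best with their own number.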
